A study of Homo sapiens with 30 samples.

Results

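The comparison set T47D cells depleted of the NELF-E subunit of negative elongation factor directly against T47D cells depleted of its NELF-A subunit, to ask whether loss of one subunit or the other leaves the same messenger RNA levels. Its members were the 3 arrays labelled siNELF-E and the 3 labelled siNELF-A, 6 of the 15 gene-level arrays of the series, chosen by their labels alone. T47D is an established luminal breast cancer line. Both groups had received 10 nM of siRNA with a lipid reagent, had fresh medium after 48 hours and were harvested 48 hours after that, so that both carried a transfected siRNA and differed in its target. The 3 arrays from cells given an siRNA against luciferase (siControl), a gene the cells lack, were kept out of the contrast and are shown only as levels. The siRNA sequences are not given in the sources used here and each knockdown was made in 1 line. Per the submitters' design text, the 3 repeats of a condition are technical. Every p-value below therefore measures the spread between repeats, and an effect of the target cannot be told apart from one of the particular siRNA or culture.

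NELF is a complex of A, B, C (or its shorter form D) and E subunits that binds RNA polymerase II soon after initiation and, together with the factor DSIF, holds it near the promoter. The kinase P-TEFb phosphorylates both factors, NELF leaves, and the polymerase moves into the gene body. NELF-A contacts the polymerase, and NELF-E carries an RNA recognition motif that binds the nascent transcript. In breast cancer cells the complex is also known as a partner of the oestrogen receptor through its B subunit.

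The values are log2 RMA levels, a robust summary of all core-exon probes of a gene on an exon array, so that a difference of 1 is a change of 2-fold. A total of 22011 transcript clusters, called genes here, were measured. Pairs of arrays correlated at 0.987 to 0.9875 within siNELF-E, at 0.9836 to 0.985 within siNELF-A and at 0.9714 to 0.9772 between the groups. The interquartile range of siNELF-A replicate 3, 3.69, was lower than the 3.91 of both other siNELF-A arrays and the 3.89 to 4.01 of the siNELF-E arrays. Luminal markers were bright on all 6 arrays, with KRT8 at 12.19 to 12.93. Of 6 basal, 13 fibroblast, 11 endothelial and 14 leukocyte markers none was called by limma, and 2, 10, 8 and 11 of them lay below 3.89, the 40th percentile of all gene means. Their summed levels on the log2 scale were 7.75 to 7.82 in siNELF-E and 7.89 to 8.04 in siNELF-A for basal markers, 7.28 to 7.35 and 7.29 to 7.33 for fibroblast markers, 6.77 to 6.96 and 6.92 to 7.10 for endothelial markers, and 6.89 to 7.08 and 7.08 to 7.15 for leukocyte markers.

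The targeted genes were read first. NELFE and NELFA have no gene-level cluster of their own, and each was measured as the median of its 15 exon-level probe sets. NELFE stood at 4.66, 4.70 and 4.60 on the siNELF-E arrays and at 7.98, 8.20 and 7.42 on the siNELF-A arrays, with 7.29, 7.22 and 7.27 on the control arrays. Its level was 9.29-fold lower in siNELF-E than in siNELF-A (log2 difference -3.22 ± 0.22 SE, limma adjusted p = 4.38e-05). NELFA stood at 6.39, 6.07 and 6.55 in siNELF-E and at 5.39, 5.58 and 5.92 in siNELF-A, against 6.25, 6.14 and 6.34 in control. The siNELF-A arrays were the lowest of the 9 arrays, but the difference of 0.71 ± 0.21 missed the threshold (adjusted p = 0.0522). Taken as the mean of the probe sets in place of the median, NELFA differed by 0.99 (adjusted p = 0.000188), and without siNELF-A replicate 3 the median differed by 0.85 (adjusted p = 0.0407). The remaining NELFA transcript was thus 0.61 below control in siNELF-A, whereas NELFE was 2.61 below control in siNELF-E, and the part of this unequal depletion in the results below was not tested. NELFCD, the gene of the C subunit, read 9.71, 9.55 and 9.67 in siNELF-E and 8.87, 8.66 and 8.23 in siNELF-A, with control between at 9.19 to 9.33. It was 2.08-fold higher in siNELF-E at gene level (adjusted p = 0.0139), and this call was lost without siNELF-E replicate 1 and without siNELF-E replicate 3. On its probe set medians it was lost with all 15 arrays in the fit (adjusted p = 0.0932). NELFB was not analysed here.

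Gene expression differed widely between the knockdowns. With limma, 1839 of the 22011 genes, 8.35%, were called at an adjusted p below 0.05 and a difference of at least 1.5-fold. Of these, 1122 (5.1% of all genes) were higher in siNELF-E and 717 (3.26%) were lower. In all 1839 the 3 siNELF-E arrays lay beyond the 3 siNELF-A arrays, and 694 differed by at least 2-fold, 426 upward and 268 downward. The split by direction depended on scaling, since centring each array on its 75th percentile gave 967 higher and 1057 lower, or 47.8% higher in place of 61%. That centring moved the median difference of all genes from -0.015 to -0.10. The number of calls also depended on single arrays, with 1053, 1082 and 980 calls without siNELF-E replicate 1, 2 or 3 and 1184 without siNELF-A replicate 2, and it was 891 when all 15 arrays of the series shared the estimate of spread.

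**Figure D1:**
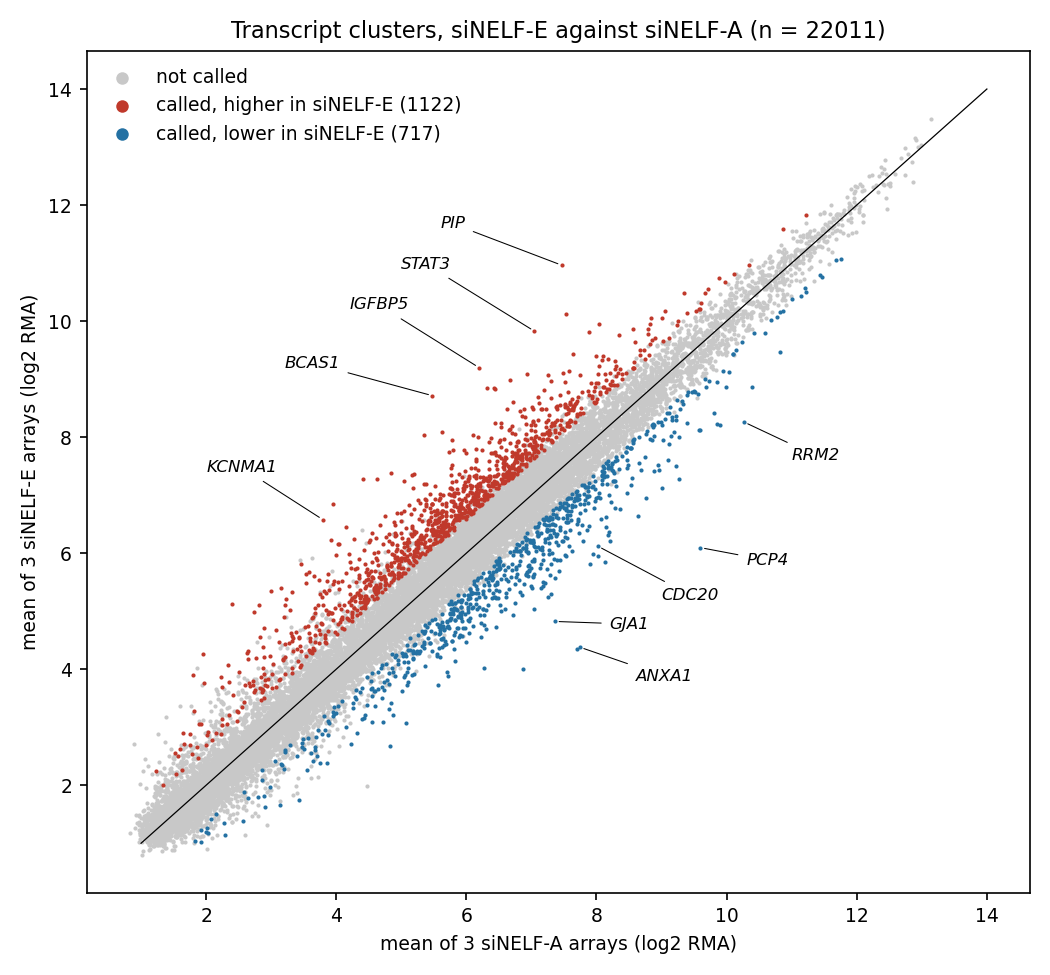
Mean log2 RMA level of each of 22011 transcript clusters on the 3 siNELF-E arrays (vertical axis) against the 3 siNELF-A arrays (horizontal axis), with called genes in colour and the line of equal levels in black. The 1122 called genes above the line include PIP and BCAS1, and the 717 below it include PCP4 and ANXA1.

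The genes of cell division were lower in siNELF-E than in siNELF-A almost throughout. Among mitotic kinases, cyclins and subunits or activators of the anaphase-promoting complex, 26 of 28 measured genes were called lower in siNELF-E and none was called higher, against 3.26% of all genes, and their median difference was -1.28 beside -0.015 for all genes. CDC20, the activator of the anaphase-promoting complex, read 5.88, 6.48 and 6.00 in siNELF-E and 8.43, 7.79 and 7.84 in siNELF-A, below the 9.0 to 9.31 of control. Its 3.74-fold difference (-1.90 ± 0.23, adjusted p = 0.00493) put the siNELF-E arrays lowest, control highest and siNELF-A between them. The same order held for 25 of the 26 called genes, in each of which all control arrays lay above all siNELF-A arrays. Median levels of the 28 genes were 2.07 below control in siNELF-E and 0.78 below control in siNELF-A. PBK, a mitotic kinase, had the largest difference (4.52, 5.46 and 5.12 against 7.02, 7.01 and 7.11, or 4.03-fold). NEK2, a kinase of the centrosome, and BUB1, a kinase of the spindle checkpoint, were 3.46-fold and 3.44-fold lower in siNELF-E. PTTG1, which encodes securin, read 8.03, 8.63 and 7.95 against 9.93, 10.06 and 9.71. MELK, a kinase of proliferating cells, read 4.31, 4.71 and 4.63 against 6.22, 6.30 and 6.15. Only 2 of the 28 were not called, CDC25C, a phosphatase that activates CDK1 (-0.80 ± 0.24, adjusted p = 0.0881), and FZR1, the activator of the anaphase-promoting complex in G1 (0.10 ± 0.17, adjusted p = 0.795). On exon-level medians CDC25C was called, at -1.81 (adjusted p = 0.00621), as it was with the filter on dim genes (adjusted p = 0.0391), and CDC20 was at -1.30.

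Kinetochore, centromere and spindle genes followed, with 35 of 41 called lower in siNELF-E, against 3.26% of all genes, none called higher and a median of -0.99. All 41 had a negative difference. ZWINT, a kinetochore protein, read 6.21, 6.32 and 6.40 in siNELF-E and 8.25, 8.07 and 8.22 in siNELF-A (3.66-fold, adjusted p = 0.000705), and its siNELF-A arrays overlapped the control arrays at 8.04 to 8.47. For 32 of the 35 called genes the control arrays instead lay above the siNELF-A arrays. DLGAP5, a spindle assembly protein, is one of these, at 5.31, 5.62 and 5.56 in siNELF-E, 7.17, 7.25 and 7.12 in siNELF-A and 7.97 to 8.10 in control. BIRC5, which encodes survivin of the chromosomal passenger complex, was 2.94-fold lower in siNELF-E, PRC1, which bundles the central spindle, 2.84-fold, KIF2C, a microtubule-depolymerising kinesin, 3.03-fold, and CDCA5, which encodes sororin, 3.38-fold. ECT2, the exchange factor that starts cytokinesis, differed by -0.07 ± 0.13 (adjusted p = 0.815) although both knockdowns lay below control, and SPC24 by -0.45 ± 0.16 (adjusted p = 0.148), but on exon-level medians SPC24 was called, at -1.56 (adjusted p = 0.00599). Without siNELF-E replicate 1 the count of the 35 was 21. Members without a cluster of their own could be read as exon-level medians, where 12.2% of 16241 genes were called and 4.17% were called lower. Of these, 9 of 10 kinetochore and spindle genes and 2 of 4 mitotic genes were called lower, among them the kinesin KIF20A and the checkpoint kinase BUB1B, both named after their values were seen.

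Genes of DNA replication were lower as well. Of 50 origin licensing and replication fork genes, 40 were called lower in siNELF-E, against 3.26% of all genes, and none higher, with a median of -0.92. CDC6, which loads the replicative helicase at origins, read 5.64, 6.17 and 6.14 in siNELF-E against 7.93, 8.07 and 7.86 in siNELF-A (3.91-fold, adjusted p = 0.00191), and control stood above both at 8.37 to 8.42. DTL, a substrate receptor that removes the licensing factor CDT1, read 5.90, 6.42 and 6.31 against 8.26, 8.41 and 7.97. MCM10 was 3.29-fold, CCNA2, the S-phase cyclin, 2.98-fold, RFC3, a clamp loader subunit, 2.68-fold and CDC25A 2.53-fold lower. The single-strand binding subunit RPA1 (-0.24 ± 0.12, adjusted p = 0.311) and the polymerase delta subunit POLD2 (-0.75 ± 0.23, adjusted p = 0.0981) did not pass, although POLD2 was called without siNELF-A replicate 3, with quantile normalization (adjusted p = 0.0337), 75th percentile centring, the filter on dim genes, 12 arrays or 15 arrays after quantile normalization, and on exon-level medians (adjusted p = 0.021). Counts of the 40 were 24 without siNELF-A replicate 1, 24 without siNELF-A replicate 2, 21 without siNELF-E replicate 1, 26 without siNELF-E replicate 2 and 24 without siNELF-E replicate 3, while all 50 differences were negative. For 31 of the 40, control lay above siNELF-A, and for 9 it overlapped siNELF-A.

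The enzymes that supply deoxynucleotides split by gene, with 31.2% of 16 called against 8.35% of all genes. RRM2, the regulated subunit of ribonucleotide reductase, read 8.15, 8.06 and 8.57 in siNELF-E and 10.35, 10.38 and 10.08 in siNELF-A (4.02-fold, adjusted p = 0.0018), and siNELF-A overlapped control at 10.36 to 10.69. TK1, thymidine kinase, was 2.88-fold lower, TYMS, thymidylate synthase, 2.71-fold and RRM1, the large reductase subunit, 2.05-fold, each with control above siNELF-A. CMPK1, which phosphorylates pyrimidine monophosphates, was 1.55-fold higher, a call that was lost without any 1 array other than siNELF-E replicate 1 and with quantile normalization or 75th percentile centring, and the other 11 of the 16 measured genes were not called. Among Fanconi anaemia and homologous recombination genes, 15 of 29 were called lower and 1 higher, or 55.2% called against 8.35% of all genes, with a median of -0.66. BRCA1 read 3.80, 4.05 and 4.02 in siNELF-E, 5.77, 5.53 and 5.82 in siNELF-A and 6.19, 6.09 and 6.35 in control, a 3.36-fold difference between the knockdowns (adjusted p = 0.00154). FANCI, a partner in the crosslink sensor complex, was 2.97-fold lower and the nuclease gene EXO1 2.39-fold lower. NBN was the exception, at 6.63, 6.43 and 6.66 in siNELF-E against 5.61, 5.25 and 5.40 in siNELF-A, with siNELF-E overlapping control at 6.51 to 6.78. NBN encodes a subunit of the MRE11-RAD50-NBN break sensor, and RAD50, read only from exon-level medians and named after its value was seen, was also higher in siNELF-E (1.22 ± 0.18, adjusted p = 0.0018). RBBP8, which encodes the resection factor CtIP and was likewise named after its value was seen, read 5.55, 6.19 and 6.12 in siNELF-E and 8.23, 8.20 and 8.38 in siNELF-A by exon-level medians, with control between at 7.64 to 7.98 (4.99-fold lower, adjusted p = 0.000185).

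**Figure D2:**
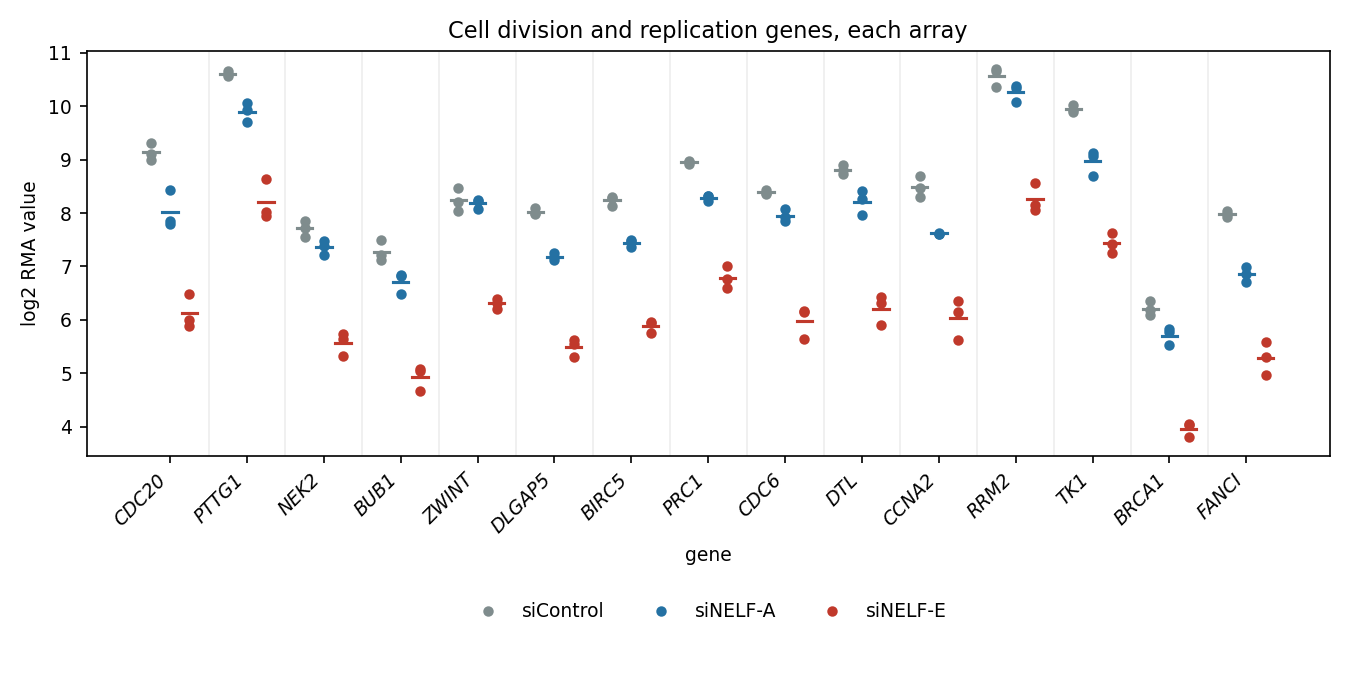
Log2 RMA level (vertical axis) of 15 cell division, replication and repair genes (horizontal axis) on each of 3 control, 3 siNELF-A and 3 siNELF-E arrays, with bars at the group means. In every gene the siNELF-E arrays lie below the siNELF-A arrays, and in all but ZWINT and RRM2 the siNELF-A arrays lie below the control arrays.

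Replication-dependent histone genes, many of them near-identical copies that share probes and are therefore uncertain one by one, were called in both directions. Of 42, 7 were called lower in siNELF-E and 5 higher, or 28.6% called against 8.35% of all genes, with a median of -0.38. Called or not, 31 had a negative difference and 11 a positive one. H3C3 read 7.49, 8.28 and 7.86 in siNELF-E and 9.06, 9.41 and 8.85 in siNELF-A, under the 9.92 to 10.42 of control. H3C10 ran the other way, at 8.83, 9.01 and 9.04 against 7.62, 7.25 and 7.04, with control between at 7.99 to 8.31. H3C3 was not called without siNELF-A replicate 1 or 2 or siNELF-E replicate 1 or 3. H2AC4 differed by -1.22 on its gene-level cluster, but its only exon-level probe set differed by 0.49, the other way, and the call was lost with all 15 arrays in the fit. H1-3 (1.79-fold) was also lower, though not called on exon-level medians, and H2BC21 (2.77-fold) and H2BC5 (2.49-fold) were higher. The 7 lower calls were 2 without siNELF-A replicate 1, 1 without siNELF-A replicate 2, 1, 3 and 4 without siNELF-E replicate 1, 2 or 3. The 5 higher calls were 3 without siNELF-A replicate 2, 3 without siNELF-E replicate 1, 3 without siNELF-E replicate 2 and 2 without siNELF-E replicate 3. The arrays read whole cultures, so fewer dividing cells and less RNA per cell cannot be told apart.

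Promoters of the division genes are printed because these genes moved together and their starts hold recurring letters. RefSeq promoter windows (build GRCh38.p14, 250 bases before to 50 after the annotated start, the first listed start of a gene) were found for 11392 of 14220 genes with a cluster of their own. The motifs were searched on both strands. CCAAT, the box bound by NF-Y, and TTTGAA, a core of the cell cycle homology region bound by DREAM and MuvB complexes, stood together in 23 of 50 windows (46%) of the mitotic and kinetochore genes called lower, in 12.6% of all 444 windows of genes called lower, in 2.55% of the 746 windows of genes called higher and in 4.85% of all 11392. TTTGAA alone was in 60%, 18.2%, 7.51% and 11.7% of the same windows. The 444 windows include these 50 and the 33 of the replication genes below, so their shares partly repeat those of the lists. Members of the lists that were not called were not counted apart. The E2F-type words TTTGGCGC or TTTCGCGC were in 12 of 33 windows (36.4%) of the replication genes called lower, beside 5.86% of all windows of genes called lower, 0.536% of those of genes called higher and 1.57% of all. A match is a description of the letters and not a site. Windows of 4 called mitotic and kinetochore genes with large differences are printed, each with both words in the 150 bases before the start. They were chosen after their values were seen. Not every called gene was considered for printing, so a gene with a larger difference may be left out. The 4 are CDC20 (chr1:43358831-43358980, plus strand), ZWINT (chr10:56361260-56361409, minus strand), DLGAP5 (chr14:55191586-55191735, minus strand) and PLK1 (chr16:23678739-23678888, plus strand). Each runs 5′ to 3′ along its gene, with CCAAT and TTTGAA, or the reverse complement of either, in capitals.
CDC20: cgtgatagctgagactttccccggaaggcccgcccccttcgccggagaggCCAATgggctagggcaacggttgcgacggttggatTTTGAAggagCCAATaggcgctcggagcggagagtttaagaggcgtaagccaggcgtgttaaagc
ZWINT: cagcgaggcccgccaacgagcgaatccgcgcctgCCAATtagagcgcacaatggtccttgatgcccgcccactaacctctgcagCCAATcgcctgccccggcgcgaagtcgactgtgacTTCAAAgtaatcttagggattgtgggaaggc
DLGAP5: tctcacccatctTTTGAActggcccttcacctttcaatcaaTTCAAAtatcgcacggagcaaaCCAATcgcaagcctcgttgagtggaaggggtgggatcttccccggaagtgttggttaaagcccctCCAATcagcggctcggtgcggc
PLK1: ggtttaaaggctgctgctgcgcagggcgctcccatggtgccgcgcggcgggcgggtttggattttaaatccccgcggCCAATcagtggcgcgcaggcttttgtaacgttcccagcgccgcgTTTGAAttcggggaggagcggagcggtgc

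CCAAT alone was in 68% of the mitotic and kinetochore windows, 63.6% of the replication windows, 45% of windows of genes called lower, 33.8% of those called higher and 36.5% of all. TTTAAA was in 26% of the mitotic and kinetochore windows and in none of the replication windows. TGACGTCA was in 8% and 12.1% of these. Over genes called lower, called higher and all genes, TTTAAA was in 11%, 7.51% and 8.93%, the cyclic AMP element TGACGTCA in 4.73%, 2.14% and 2.73%, the AP-1 element TGANTCA in 3.38%, 4.69% and 5.44%, and the interferon-type word GAAANNGAA in 6.53%, 6.70% and 6.74%. Each word was counted on its own, whether or not it overlapped another.

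PIP and BCAS1 had the largest differences in the other direction. PIP, which encodes prolactin-induced protein, a secretory product of apocrine breast cells, read 10.62, 11.24 and 11.04 in siNELF-E and 7.30, 7.42 and 7.68 in siNELF-A. The gap of 11.3-fold (3.50 ± 0.19, adjusted p = 0.000621) straddled control at 9.31 to 9.50, and all 6 exon-level probe sets of the gene showed it. BCAS1, a gene amplified in some breast cancers, was 9.42-fold higher in siNELF-E, at 8.76, 8.67 and 8.71 against 5.60, 5.61 and 5.24, but here control at 5.61 to 5.78 lay close to siNELF-A. TFF3, a trefoil peptide of mucous secretions that belongs to the oestrogen list, read 8.06, 8.27 and 7.92 against 5.66, 5.53 and 5.71 with control between (5.47-fold, or 3.14 as a log2 difference of exon-level medians). AGR2, a disulphide isomerase of secretory cells, was 3.76-fold higher.

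Luminal transcription factors went the same way. Of 28 luminal identity factors and keratins, 10 were called higher in siNELF-E and none lower, against 5.1% of all genes, with a median of 0.44. SPDEF, an Ets factor of secretory differentiation, read 8.92, 9.36 and 9.06 in siNELF-E, 7.44, 7.56 and 7.43 in siNELF-A and 8.17, 8.26 and 8.45 in control (3.10-fold, adjusted p = 0.00194). ELF5 (2.10-fold) and EHF (2.18-fold), further Ets factors, had control between the knockdowns in the same manner, but ELF5 was not called on exon-level medians (0.63, adjusted p = 0.156). FOXA1, the pioneer factor of the oestrogen receptor, read 9.05, 9.02 and 9.20 in siNELF-E and 8.21, 8.20 and 7.97 in siNELF-A (1.95-fold, adjusted p = 0.00528), and siNELF-E overlapped control. The keratins did not share this, since KRT8 differed by -0.47 ± 0.13 (adjusted p = 0.0654) and KRT19 by -0.10 ± 0.11 (adjusted p = 0.653). Without any 1 of the 3 siNELF-E arrays the count of the 10 was 6.

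Oestrogen-induced genes were divided. Of 35, 4 were called higher and 5 lower in siNELF-E, or 25.7% called against 8.35% of all genes, with a median of -0.001. Of 3 further members read only from exon-level medians, 2 were called lower and none higher. Among them PDZK1, named after its value was seen, was 2.71-fold lower (adjusted p = 0.00153). Besides TFF3, ABCC5, a transporter (3.07-fold), and MYB (2.10-fold) were higher in siNELF-E, and MYB was below its control level in both knockdowns. STC2, the glycoprotein stanniocalcin, read 7.39, 7.33 and 7.77 in siNELF-E and 9.48, 9.26 and 8.91 in siNELF-A (3.29-fold lower, adjusted p = 0.00378). Also lower were CXCL12, a chemokine (2.01-fold), NPY1R, a neuropeptide receptor (1.98-fold), and IRS1, the insulin receptor substrate (2.57-fold). CXCL12 and NPY1R were below control in both groups, whereas IRS1 was above control in siNELF-A and below it in siNELF-E. XBP1, a bright oestrogen-induced transcription factor, differed by -0.02 ± 0.10 (adjusted p = 0.95).

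The control arrays, which took no part in the contrast, placed the called genes. Of the 1122 genes higher in siNELF-E, control lay between the knockdowns in 35%, overlapped siNELF-E only in 29.5%, overlapped siNELF-A only in 22.5%, and lay beyond siNELF-E in 8.56%. The 717 lower genes had control overlapping siNELF-A only in 37.8% and beyond siNELF-A, with both knockdowns below control, in 37.5%. Control lay between in 11.6% of them and overlapped siNELF-E only in 8.79%. Over all 22011 genes it lay between in 2.71% and overlapped both knockdowns in 49.6%. Control can lie between only where the knockdowns do not overlap. That held for every called gene but not for all genes, so the shares over all genes are not a like background. These places describe levels and carry no test. They rest on the deposited values, and none under another scaling is given here. Array medians were 4.80 to 4.86 in control, 4.71 to 4.74 in siNELF-E and 4.66 to 4.74 in siNELF-A.

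**Figure D3:**
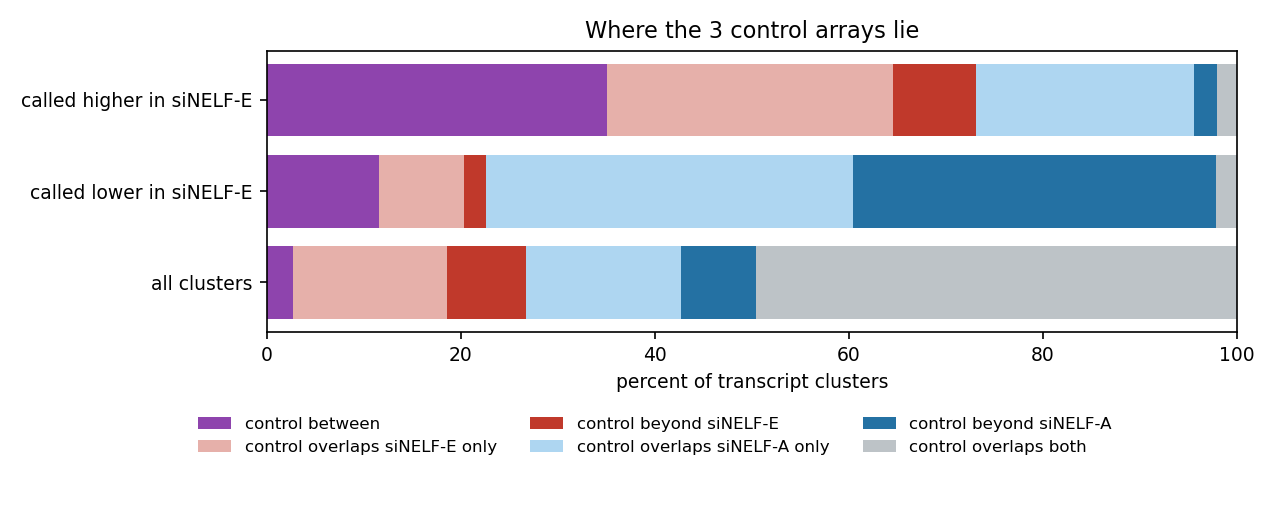
Percent of transcript clusters (horizontal axis) by where the 3 control arrays lie relative to the siNELF-E and siNELF-A arrays, for genes called higher in siNELF-E, genes called lower and all genes. The genes called higher have control between the knockdowns in 35%, and the genes called lower in 11.6%.

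Some genes were low on the siNELF-A arrays while siNELF-E stood at or near control. STAT3, a transcription factor downstream of cytokine receptors, read 7.17, 7.16 and 6.80 in siNELF-A and 9.95, 9.76 and 9.77 in siNELF-E, with control at 9.44 to 9.47, just below siNELF-E (6.88-fold, adjusted p = 0.000583). All 26 of its exon-level probe sets were higher in siNELF-E, with differences of 2.16 to 4.42. DCAF6, a substrate receptor of CUL4 ubiquitin ligases, read 5.42, 5.12 and 5.49 in siNELF-A against 7.81, 7.87 and 8.43 in siNELF-E, which overlapped control at 7.76 to 8.27, and 25 of 26 probe sets showed it. IGFBP5, which binds insulin-like growth factors, was at 6.12, 6.30 and 6.17 in siNELF-A and 9.10, 9.04 and 9.45 in siNELF-E, overlapping control (8.01-fold). ERAP1, the peptidase that trims class I antigens, was 4.96-fold higher in siNELF-E, at 6.26, 6.51 and 6.59 against 4.28, 4.18 and 3.98, and again overlapped control.

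Others were high on the siNELF-A arrays while siNELF-E overlapped control. ANXA1, annexin A1, read 7.82, 7.66 and 7.76 in siNELF-A, 3.99, 4.68 and 4.46 in siNELF-E and 4.67, 4.31 and 4.71 in control (10.3-fold, adjusted p = 0.000646), and all 14 probe sets showed the difference. LIN7A, a scaffold of cell junctions, was at 4.72, 5.32 and 5.15 in siNELF-A against 3.02, 3.31 and 2.89 in siNELF-E, overlapping control. PLK2, a stress-induced kinase, read 10.12, 10.12 and 9.71 against 8.66, 8.84 and 9.11 (2.16-fold). PLAC8 had the widest spread of the named genes, at 5.95, 4.36 and 4.18 in siNELF-A and 2.33, 2.97 and 2.75 in siNELF-E (-2.15 ± 0.46, adjusted p = 0.0336), with siNELF-A replicate 1 well above its group. Its call was lost without siNELF-A replicate 2 and without any 1 of the siNELF-E arrays.

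A further set differed from control on the siNELF-E arrays while siNELF-A overlapped control. PCP4, a calmodulin-binding peptide, read 6.29, 6.09 and 5.90 in siNELF-E, 9.60, 9.65 and 9.55 in siNELF-A and 9.68, 9.48 and 9.47 in control (11.3-fold lower, adjusted p = 0.000486). GPR158, an orphan receptor, was at 4.04, 3.86 and 4.16 against 6.51, 6.33 and 5.98, and SDC2, a syndecan, at 4.95, 5.24 and 5.68 against 7.32, 7.33 and 7.27. In both, siNELF-A overlapped control. In the upward direction NDRG1, a hypoxia- and differentiation-induced gene, read 6.26, 6.34 and 6.12 in siNELF-E against 4.22, 4.24 and 4.34 in siNELF-A (3.92-fold), and FGFR4, a fibroblast growth factor receptor, 6.84, 6.94 and 6.99 against 5.12, 5.49 and 5.15 (3.18-fold). Both overlapped control in siNELF-A.

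A last group lay on opposite sides of control. KCNMA1, the pore subunit of the BK potassium channel, read 6.52, 6.59 and 6.62 in siNELF-E, 3.90, 3.65 and 3.83 in siNELF-A and 5.41 to 5.57 in control (6.89-fold). PEG10, an imprinted retrotransposon-derived gene, was 6.00-fold higher in siNELF-E, at 10.11, 10.00 and 10.24 against 7.76, 7.65 and 7.19. NAALADL2 was 7.26-fold, ABCA12, a lipid transporter, 5.24-fold and FBP1, a gluconeogenic enzyme, 5.37-fold higher, each with control between. BCHE, butyrylcholinesterase, was 5.15-fold higher with control at 3.23 to 3.81, nearer siNELF-A. Downward, TNNC1, a troponin subunit, read 3.91, 4.13 and 3.99 in siNELF-E, 7.01, 7.27 and 6.36 in siNELF-A and 5.99 to 6.30 in control. GJA1, which encodes connexin 43, was 5.81-fold lower, AP3S2, an adaptor subunit of vesicle sorting, 4.24-fold, and ATL3, an atlastin that shapes the endoplasmic reticulum, 3.99-fold. On exon-level medians ATL3 differed by -1.14, and 15 of its 22 probe sets were lower. The same medians gave larger log2 differences of 3.38 for KCNMA1, 3.50 for NAALADL2, 2.58 for NDRG1, 2.95 for ERAP1 and -2.73 for LIN7A. The lower of both group means was under the 40th percentile for KCNMA1, BCHE, LIN7A and PLAC8, and likewise for H2AC4, DTX3L, OAS2, DUSP10, EPHA4 and QKI, so those folds rest on a level near background.

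**Figure D4:**
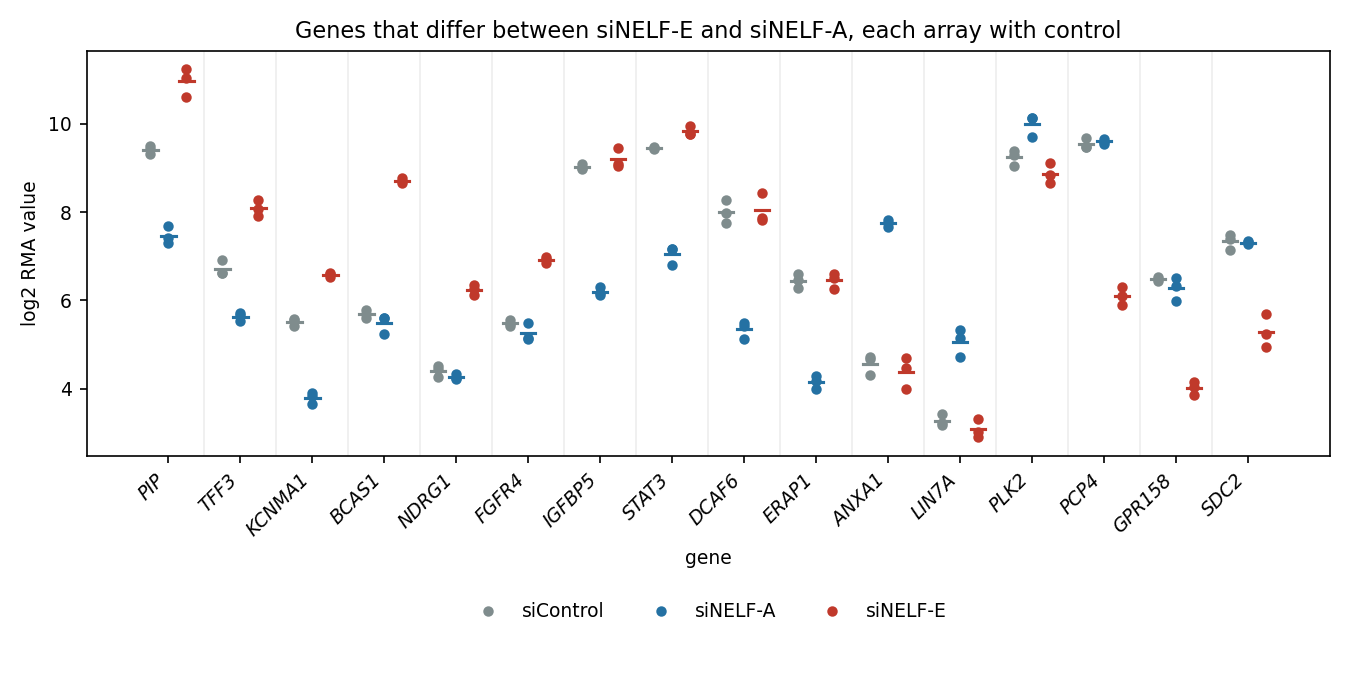
Log2 RMA level (vertical axis) of 16 genes that differ between the knockdowns (horizontal axis) on each of 3 control, 3 siNELF-A and 3 siNELF-E arrays, with bars at the group means. PIP, TFF3 and KCNMA1 have control between the knockdowns, IGFBP5 to PLK2 differ mainly on the siNELF-A arrays except that STAT3 in siNELF-E is also slightly above control, and BCAS1, NDRG1, FGFR4 and PCP4 to SDC2 differ mainly on the siNELF-E arrays.

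TXNIP, which binds thioredoxin and limits glucose uptake, read 8.91, 8.85 and 8.79 in siNELF-E and 6.38, 6.43 and 6.14 in siNELF-A, with control between at 8.22 to 8.30 (5.80-fold, adjusted p = 0.000542). FBXO32, the ubiquitin ligase atrogin-1, was 6.26-fold higher, at 7.31, 7.14 and 7.37 against 5.01, 4.66 and 4.21. CCNG2, an atypical cyclin of quiescent cells, was 2.77-fold and CCNG1 2.19-fold higher. CDKN1A, the CDK inhibitor p21, stood at 7.31, 7.45 and 7.42 against 6.76, 6.75 and 6.39 (1.70-fold, adjusted p = 0.0173), with control at 6.47 to 6.50, and it was not called without any 1 of the siNELF-E arrays or on exon-level medians (0.17, adjusted p = 0.644). Of 29 CDK inhibitors and p53 targets, 3 were called higher and 4 lower, or 24.1% called against 8.35% of all genes. Among the lower were RBL1, the pocket protein p107 (2.37-fold), and DDB2, a damage sensor (1.67-fold), while MDM2 differed by 0.21 ± 0.16 (adjusted p = 0.493). The list's median, 0.019, took the other sign with quantile normalization and with either centring. The 4 lower calls were 2 without siNELF-A replicate 1 or 2 or without any 1 siNELF-E array, DDB2 being lost each time, and 7 without siNELF-A replicate 3. Among 30 apoptosis regulators 2 were higher and 2 lower, or 13.3% called against 8.35% of all genes. TNFSF10, the death ligand TRAIL, was 5.87-fold higher, at 7.26, 7.52 and 7.39 against 5.05, 4.92 and 4.54, CFLAR, an inhibitor of death receptor signalling, was 1.68-fold higher (1.69 as a log2 difference of exon-level medians), and the TRAIL receptor TNFRSF10B and the effector BAK1 were 1.61-fold and 1.75-fold lower. TNFRSF10B was not called on exon-level medians. Both lower calls were lost without siNELF-A replicate 1, without siNELF-A replicate 2 and without any 1 of the siNELF-E arrays, and the higher calls were 1 without any 1 of the siNELF-E arrays.

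Growth factor signalling genes moved both ways, with 6 of 46 called higher and 5 lower and a median of 0.10. These calls were 23.9% of the list, against 8.35% of all genes. ERBB4 read 6.18, 6.15 and 6.56 in siNELF-E and 4.89, 4.87 and 4.93 in siNELF-A, with siNELF-E overlapping control (2.65-fold). ERBB3 was 1.71-fold and ERBB2 1.59-fold higher. EFNB2, an ephrin ligand, was 2.29-fold lower in siNELF-E but above control in both, at 5.04, 5.24 and 5.47 against 6.60, 6.46 and 6.28 with control at 4.29 to 4.61. ERRFI1, a feedback inhibitor of the EGF receptor, was 1.73-fold lower. The adaptor SHC1 was 1.60-fold lower and EPHA4 1.65-fold. The 5 lower calls were 3 without siNELF-A replicate 1 and 2 without siNELF-A replicate 2 or any 1 siNELF-E array. SHC1 and ERRFI1 were lost in each of these cases, EPHA4 and ERBB2 in all but the one without siNELF-A replicate 1, and ERBB3 without any 1 of the siNELF-E arrays. EPHA4, ERBB2 and SHC1 were not called on exon-level medians, nor ERBB2 with 75th percentile centring.

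Of 34 hypoxia and glycolysis genes, 9 were called higher in siNELF-E and 2 lower, or 32.4% called against 8.35% of all genes, with a median of 0.14. Apart from NDRG1, EPAS1, the oxygen-regulated factor HIF-2 alpha, read 6.63, 6.83 and 7.03 against 4.95, 5.52 and 4.89 (3.27-fold), and the glycolytic enzymes ALDOC, HK1 and the regulator PFKFB4 were 2.52-fold, 2.26-fold and 2.01-fold higher. EGLN3, an oxygen-sensing hydroxylase, was 1.98-fold and PFKP 1.74-fold lower, and the 2 lower calls were 1 without siNELF-A replicate 2 or without any 1 of the siNELF-E arrays. LDHA and ENO1, bright members of the list, differed by -0.11 ± 0.10 (adjusted p = 0.595) and -0.16 ± 0.11 (adjusted p = 0.442). Lysosome and autophagy genes had 6 of 28 called higher and none lower, or 21.4% called against 8.35% of all genes, with a median of 0.30. Against the control mean, the median of these 28 was 0.110, 0.024 and 0.125 on the siNELF-E arrays. On the siNELF-A arrays it was -0.022, -0.083 and -0.464, lowest on replicate 3. A member was called lower with quantile normalization, median centring, MAD scaling, the filter on dim genes or 12 arrays, and 2 were with 75th percentile centring or without siNELF-A replicate 3. Of 9 further members read only from exon-level medians, 2 were called higher and 1 lower, with a median of 0.5. The lower one was CTSL, cathepsin L, named after its value was seen (2.27-fold, adjusted p = 0.00599). TPP1, a peptidase, was 2.0-fold, HEXA, a hexosaminidase subunit, 1.81-fold, SGSH, a sulphatase, 1.70-fold and CTSA, cathepsin A, 1.62-fold higher. Their count was 3 without siNELF-E replicate 1 and 3 without siNELF-E replicate 3, and it was 2 with all 15 arrays in the fit. CTSA was not called without siNELF-A replicate 2 or any 1 of the siNELF-E arrays.

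Interferon-stimulated genes were low in both knockdowns, with medians of 1.05 and 1.27 below control in siNELF-E and siNELF-A over 47 genes. Against each other, 6 were called higher in siNELF-E and 1 lower, or 14.9% called against 8.35% of all genes. DTX3L, an ubiquitin ligase, read 5.12, 5.34 and 5.46 in siNELF-E and 3.83, 4.07 and 3.65 in siNELF-A, both below control at 6.67 to 7.21 (2.75-fold, adjusted p = 0.00309). Its partner PARP9 stood at 8.46, 8.31 and 8.29 against 7.12, 7.12 and 6.49 (2.73-fold). IFI35 was 2.35-fold, PARP14 2.18-fold and OAS2 1.97-fold higher. IFIT1, which binds viral RNA caps, was the one gene called lower, at 3.88, 4.04 and 4.13 against 5.19, 4.91 and 5.21 (2.12-fold, adjusted p = 0.00493), both far below the control level of 9.20 to 9.58. Without siNELF-E replicate 3 the 6 calls were 3, IFI35 and OAS2 being lost there and without siNELF-A replicate 2, and IFI35 also without siNELF-E replicate 1 or 2. Among 16 class I antigen processing genes 18.8% were called, against 8.35% of all genes. TAPBP, which encodes tapasin (2.28-fold), and the peptidase gene ERAP2, whose mean was below the 40th percentile in both knockdowns, were called higher beside ERAP1, and none was lower. The chaperones CALR and CANX differed by 0.17 ± 0.10 (adjusted p = 0.376) and 0.04 ± 0.10 (adjusted p = 0.871).

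Of 42 unfolded protein and ATF4 response genes, none was called higher and 7 lower in siNELF-E, or 16.7% against 3.26% of all genes, with a median of -0.12. Of 2 further members read only from exon-level medians, PSPH, named after its value was seen, was called higher (1.51-fold, adjusted p = 0.0469). CHAC1, an ATF4 target that degrades glutathione, read 4.25, 3.87 and 3.59 against 5.20, 4.91 and 5.39 in siNELF-A, and siNELF-E overlapped control. The amino acid transporter subunit SLC3A2 (1.70-fold) and the stress factor NUPR1 (1.68-fold) were lower too, while SLC38A2 differed by 0.13 ± 0.10 (adjusted p = 0.528). The 7 calls were 4 without siNELF-A replicate 1, 3 without siNELF-A replicate 2, 4 without siNELF-E replicate 1, 2 without siNELF-E replicate 2 and 3 without siNELF-E replicate 3. NUPR1 was lost in all 5 cases and on exon-level medians, SLC3A2 without siNELF-A replicate 2 or siNELF-E replicate 2 or 3, and CHAC1 without siNELF-E replicate 2. Of 37 immediate early genes, 10.8% were called, against 8.35% of all genes. Of these 3 were higher and 1 lower, with the phosphatases DUSP10 (3.32-fold) and DUSP5 (1.73-fold) and the receptor NR4A1 (1.71-fold, and 1.41 as a log2 difference of exon-level medians) higher and IER3 2.15-fold lower. The count of lower calls was 5 without siNELF-A replicate 3 and 4 with quantile normalization. Of 34 NF-kB genes, 1 was higher and 2 were lower, or 8.82% called, close to the 8.35% of all genes. NFKB1 was 1.98-fold higher, NFKB2 was 1.50-fold lower, and the signalling adaptor TRAF1, also lower, was dim in both groups. NFKB1 was not called without siNELF-E replicate 2 or 3, and NFKB2 was lost without any 1 array other than siNELF-A replicate 3. The inhibitor NFKBIA differed by 0.71 ± 0.18 (adjusted p = 0.0584), and it was called with quantile normalization (adjusted p = 0.0233), both centrings, MAD scaling, the filter on dim genes, 12 arrays, and 15 arrays after quantile normalization.

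Among 51 TGF-beta, matrix and integrin genes, 3 were higher and 6 lower, or 17.6% called against 8.35% of all genes, with a median of -0.004. TGFB3 read 8.10, 8.12 and 8.15 in siNELF-E and 7.04, 7.01 and 6.95 in siNELF-A, with control between (2.18-fold, adjusted p = 0.00187). L1CAM, a cell adhesion molecule, was 2.23-fold lower in siNELF-E but above control in both, and CD44 was 1.77-fold higher but below control in both. Without siNELF-E replicate 2 or siNELF-E replicate 3 the 3 higher calls were 1. THBS1, thrombospondin, was 1.76-fold and COL12A1 1.67-fold lower. COL12A1 was lost without any 1 array other than siNELF-A replicate 3, and CD44 was lost without siNELF-A replicate 1 or siNELF-E replicate 2 or 3. Of 28 cholesterol and lipid genes 2 were higher and 2 lower, or 14.3% called against 8.35% of all genes, with a median of 0.28. Against the control mean, the median of these 28 was 0.059, 0.101 and 0.256 on the siNELF-E arrays. On the siNELF-A arrays it was 0, -0.057 and -0.245, lowest on replicate 3. SC5D, a sterol desaturase, was 1.69-fold and INSIG2 1.82-fold higher, and the fatty acid enzymes FADS1 and ELOVL6 were 1.78-fold and 2.03-fold lower. ELOVL6 was not called without siNELF-A replicate 2 or any 1 of the siNELF-E arrays, and none of the 4 was called with all 15 arrays in the fit. Of 23 xenobiotic and polyamine enzymes 17.4% were called, against 8.35% of all genes. The 1 lower was the antizyme inhibitor AZIN1 (1.52-fold). The 3 higher included SAT1, the spermidine acetyltransferase (1.92-fold), and OAZ1, antizyme (2.28-fold). The 3 were 1 without siNELF-E replicate 1 or 3. The SAT1 call was lost without any 1 array other than siNELF-A replicate 3, and with quantile normalization or 75th percentile centring. OAZ1 was lost without siNELF-A replicate 3 or siNELF-E replicate 1 or 3, and AZIN1 was lost without siNELF-A replicate 1 or 2 or siNELF-E replicate 1 or 2.

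None of 18 cytosolic ribosomal protein genes was called by limma, and none of the further 27 read as exon-level medians. Of 40 oxidative phosphorylation genes 2 were called higher and of 20 heat shock genes 1, or 5% of each list, against 5.1% of all genes. Called or not, 31 of the 40 oxidative phosphorylation genes had a negative difference and 9 a positive one, with a median of -0.116. For 1 of the 2 called, control overlapped both knockdowns. HSPB8, a small heat shock protein read only from exon-level medians and named after its value was seen, was 3.70-fold lower (adjusted p = 0.000265), at 7.70, 7.72 and 7.45 against 9.66, 9.56 and 9.31, with control between at 7.97 to 8.13. RPL8 differed by 0.01 ± 0.10 (adjusted p = 0.974) and HSPA8 by 0.06 ± 0.11 (adjusted p = 0.783). Among 41 splicing factors 9.76% were called, close to the 8.35% of all genes. Of these 2 were higher and 2 lower, the latter HNRNPH1, at 9.06, 8.94 and 9.38 against 10.15, 10.04 and 9.91 (1.87-fold), and QKI (2.08-fold, not called on exon-level medians). Of 35 lamina, importin and exportin genes 14.3% were called, against 8.35% of all genes. Of these 4 were lower, including TMPO, a lamina-associated protein (1.79-fold), and the exportin CSE1L (1.60-fold), and 1 was higher. The 4 were 1 without siNELF-E replicate 1 and 2 without siNELF-E replicate 2, TMPO being lost in both, and the single higher call was lost without siNELF-A replicate 1 or 2 or any 1 siNELF-E array. HNRNPH1 and CSE1L were not called without siNELF-E replicate 1, nor CSE1L on exon-level medians. The higher calls among splicing factors were 1 without siNELF-A replicate 3 or any 1 siNELF-E array, and those in oxidative phosphorylation were lost without siNELF-A replicate 2 or siNELF-E replicate 1 or 2.

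Of 24 genes of the pausing machinery itself, 4 were higher in siNELF-E and 1 lower, with a median of 0.044 that turned negative with quantile normalization and 75th percentile centring. These calls were 20.8% of the list, against 8.35% of all genes, and NELFCD, given above, was among the higher ones. ELL2, an elongation factor subunit, read 6.04, 5.91 and 5.69 in siNELF-E and 5.12, 4.99 and 4.75 in siNELF-A, where it overlapped control (1.90-fold, adjusted p = 0.0121). AFF1, a scaffold of the super elongation complex, was 1.68-fold higher, and its siNELF-E arrays overlapped control. SUPT4H1, the small subunit of DSIF, was lower in siNELF-E, at 8.68, 8.92 and 8.58 against 9.36, 9.47 and 9.35, and again it was siNELF-E that overlapped control (1.59-fold, adjusted p = 0.0197). SUPT6H differed by -0.04 ± 0.18 (adjusted p = 0.933). The 4 higher calls were 1 without any 1 of the siNELF-E arrays, AFF1 also being lost without siNELF-A replicate 2, and SUPT4H1 was not called without siNELF-A replicate 1, without siNELF-A replicate 2, without siNELF-E replicate 1 or without siNELF-E replicate 3.

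**Figure D5:**
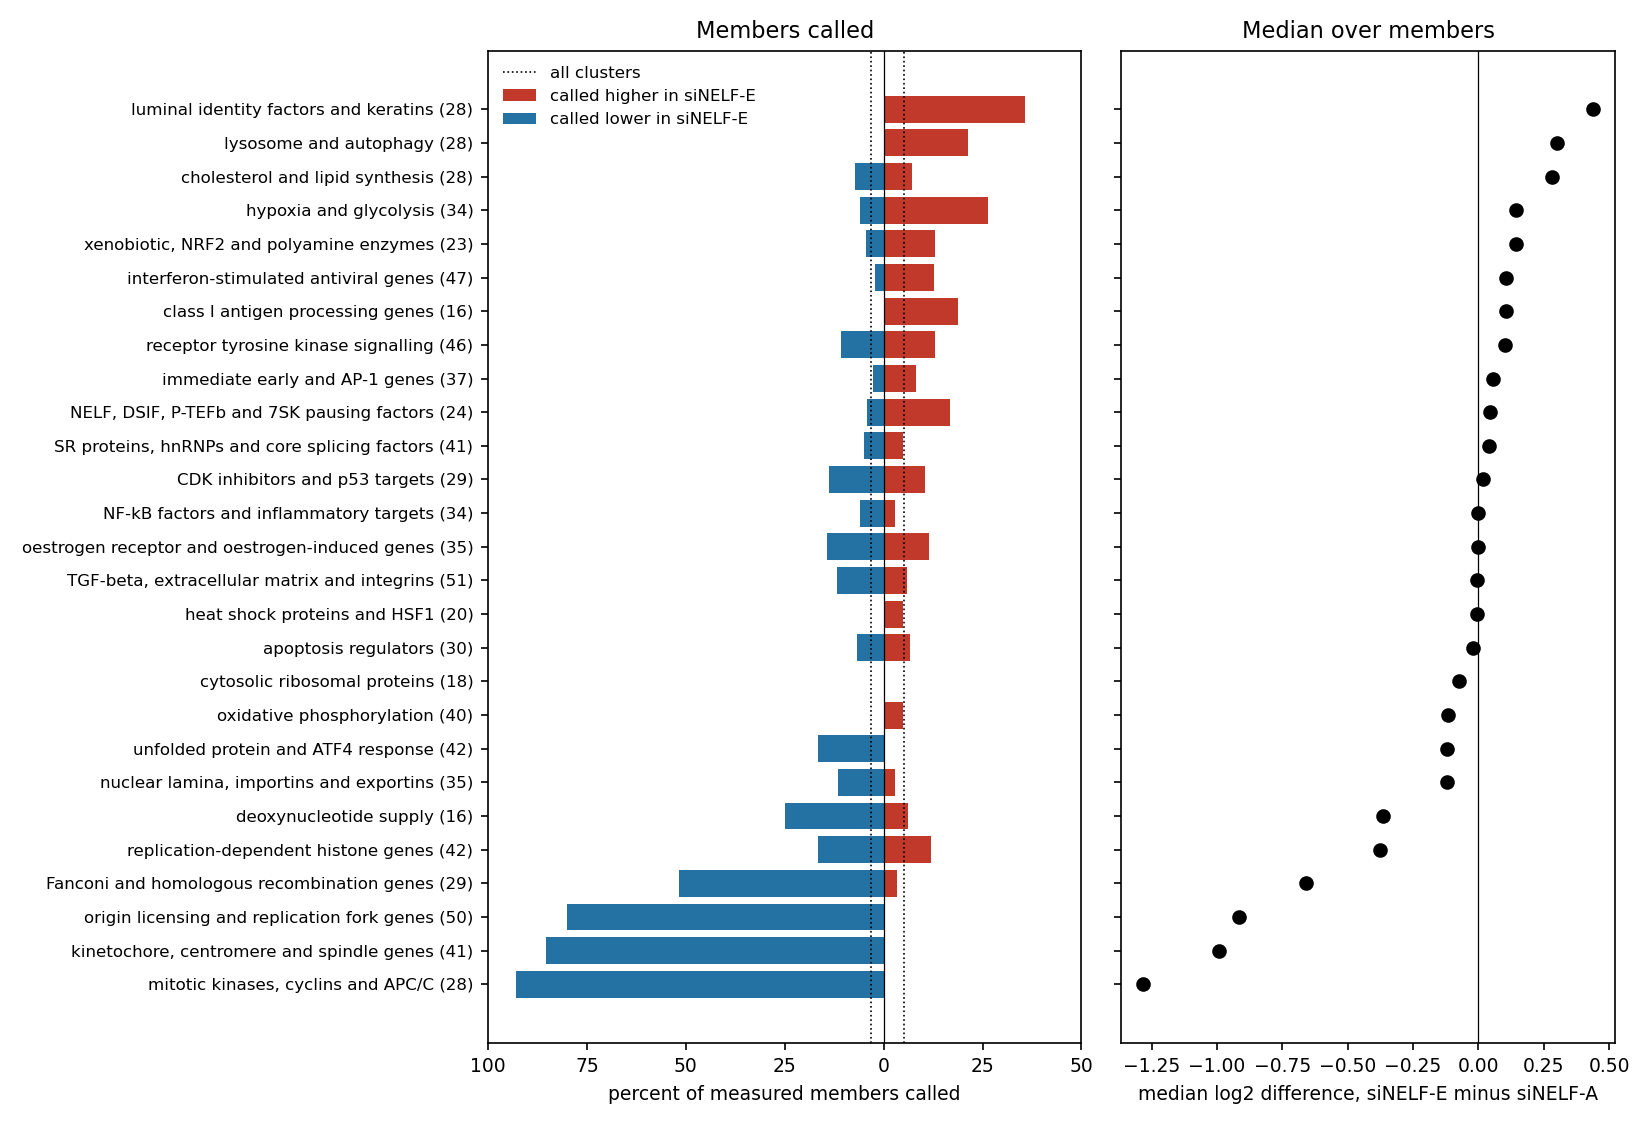
Left, percent of the measured members of each gene list (number in brackets) called higher or lower in siNELF-E than in siNELF-A, with dotted lines at 5.1% and 3.26% for all clusters. Right, median log2 difference of the members, which runs from -1.28 for mitotic genes to 0.44 for luminal genes.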

How the data were processed

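T47D cells were profiled on exon arrays. Per the labels, the deposited log2 values are RMA expression levels from core exons made in ArrayAssist on build hg18, and the software version is not given in the sources used here. They were used as deposited. Of 22011 transcript clusters, 14432 had 1 gene symbol, 2408 several and 5171 were not listed, and genes were named only from the first kind, through the brightest cluster of a symbol.

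The 3 siNELF-E and 3 siNELF-A arrays were compared with limma 3.58.1 (lmFit and eBayes) in R 4.3.3 (tables read with the package data.table, version 1.17.8). Calls required a difference of 1.5-fold or more together with an adjusted p under 0.05, with the Benjamini-Hochberg adjustment made across every cluster. Exon-level values were taken as the median of a gene's probe sets, with at least 3 probe sets a gene, and fitted the same way over 16241 genes. The p-values cover the spread between 3 arrays a group, which limits their precision. The fit was tested on simulated data.

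Named genes were the 15 largest called differences in each direction at or above the 40th percentile of level, the NELF genes, and up to 6 called members in each direction and 2 bright uncalled members of each gene list. Other genes are said to be named after their values were seen. The members and lists were chosen with earlier results of these data known. Promoters came from RefSeq (GRCh38.p14). Alternatives covered scaling, a filter on dim clusters, the arrays in the fit, each array left out, a replicate block, the fold threshold, the variance model and exon-level medians. The fit of all 15 arrays after quantile normalization was chosen after seeing the data.

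Replicate numbers were not treated as pairs: deviations from the group means of same-numbered siNELF-E and siNELF-A arrays correlated at 0.01, 0.055 and -0.083.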

Additional observations from a re-analysis of the deposited data

How the results depend on the processing

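The 1839 calls were 891 with all 15 arrays in the fit, 694 at a 2-fold threshold, 960 with the replicate block, and between 980 and 1712 with 1 array left out, and stayed within 1.5 times of 1839 under the other alternatives run. The share of calls higher in siNELF-E, 61%, became 47.8% with 75th percentile centring, 54.8% with quantile normalization, 57.7% with median centring, 56.5% with median and MAD scaling, 63.3% with 15 arrays, 55.5% with 15 arrays after quantile normalization, 65.9% on exon-level medians and 51.1% to 66.8% with 1 array left out. The NELFA probe set difference was 0.987 as a mean of probe sets and 0.706 with 12 arrays, where it was called, and 0.585 to 0.85 with 1 array left out. The NELFCD difference, 0.974, was not called with 15 arrays. Of 154 genes named from the fit, none of the 135 called turned direction and 8 of the 19 not called did, over 19 alternatives (9 genes had 18). Of them 35 lost their call with 15 arrays, 33 with the replicate block, 41 at the 2-fold threshold and between 2 and 32 with 1 array left out. The same numbers marked no pairing, and not every array correlated best with its own number. Where a count moved, the cause was not tested. Each fit with 1 array left out also had fewer arrays. No fold is given where both means were under the 40th percentile.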
